A study of Mus musculus with 9 samples.

Results

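The urea cycle genes Nags, Cps1, Otc, Ass1, Asl and Arg1 were read from a table of mouse liver mRNA by their symbols, which gave 6 genes of the 31964 gene IDs listed. The table holds 9 RNA-seq libraries in 3 groups of 3, named M (replicates 24, 26 and 27), A-C (replicates 6, 9 and 12) and C (replicates 2, 3 and 4) after their titles. The study concerns magnesium isoglycyrrhizinate (MgIG), a liver drug derived from liquorice, in the NIAAA mouse model, where mice drink an alcohol-containing liquid diet. Which diet or drug each letter stands for is not given in the sources used here, nor are sex, age, dose or time, so groups are compared by letter only. The strain is written as C57BL6J for 8 libraries and as C57BL7J for C replicate 4. Nothing states that the samples of a group are separate animals, so p-values measure the spread between these samples, which may be technical. No batch is named, so handling and group cannot be told apart.

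The urea cycle turns ammonia, released when amino acids are broken down, into urea that the kidney can excrete, and in mammals the complete cycle runs in the liver, mostly in the hepatocytes around the portal vein. NAGS makes N-acetylglutamate, the obligate activator of CPS1. CPS1 joins ammonia and bicarbonate in the mitochondrion, OTC passes the product to ornithine to give citrulline, and in the cytosol ASS1 adds aspartate, ASL releases arginine and fumarate, and ARG1 splits arginine into urea and ornithine.

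The levels given are in TPM, a transcript abundance corrected for gene length, after scaling between libraries by trimmed means (TMM). Changes are log2 fold changes of (scaled TPM + 1), tested with limma over 11086 genes, with a call at an adjusted p under 0.05. The reads recovered behind the table numbered 45597163 to 65165613 per library, and 2286 to 329216 reads of a library lay in 1 urea cycle gene, so counting error is small beside the spread between samples. The 9 matched hepatocyte markers summed to 94696 to 111403 TPM as deposited in M, 97538 to 138693 TPM in A-C and 127346 to 140256 TPM in C, so that M lay below C without overlap. Of these 9, M had 2 called higher and 2 called lower than C, and A-C had 1 called lower, where calls in either direction made up 16.1% and 16.8% of all tested genes. The labels name hepatocytes as the cell type, yet the 10 endothelial markers summed to 92.0 to 136 TPM in M, 172 to 194 TPM in A-C and 52.1 to 84.4 TPM in C, and the 10 Kupffer cell and macrophage markers to 248 to 275, 283 to 411 and 142 to 222 TPM in the same groups. In A-C 8 of the 10 endothelial and 4 of the 10 Kupffer cell markers were called higher than in C, where 9.65% of all tested genes were called higher. B cell markers summed to 6.38 to 11.1 TPM in M, 8.45 to 9.43 TPM in A-C and 30.8 to 41.9 TPM in C. Erythroid markers summed to 302 to 1193 TPM in M, 158 to 362 TPM in A-C and 424 to 658 TPM in C. The part of these cell types in the urea cycle levels was not tested. In bulk tissue, fewer cells of a type and less RNA per cell cannot be told apart. Acute phase genes, which encode plasma proteins secreted in inflammation, made up 3.16%, 14.8% and 10.9% of the M libraries (by replicate 24, 26 and 27), 2.58%, 7.47% and 19.8% of the A-C libraries (by replicate 6, 9 and 12) and 1.43% to 1.80% of the C libraries, as shares of TPM. The share of mitochondrially encoded mRNA was 27.6% for C replicate 2, with no other library above 15.4%.

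On mm10 the genes lie on 6 chromosomes, and the bounds of all 6 in the table match those of GENCODE M21. Cps1 (ENSMUSG00000025991) has 38 separate exon blocks at chromosome 1, 67123026 to 67231259, and Ass1 (ENSMUSG00000076441) 16 blocks at chromosome 2, 31470207 to 31520672. Otc (ENSMUSG00000031173) has 11 blocks at chromosome X, 10252305 to 10321024, and Nags (ENSMUSG00000048217) 4 blocks at chromosome 11, 102145513 to 102149477, all on the plus strand. Asl (ENSMUSG00000025533, chromosome 5, 130011258 to 130029247, 19 blocks) and Arg1 (ENSMUSG00000019987, chromosome 10, 24915221 to 24927484, 7 blocks) lie on the minus strand. The antisense gene Gm11586 covers 443 exonic bases of Nags, and since the use of strand in counting is not given, reads of the pair cannot be told apart there.

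RefSeq promoter sequences (GRCm38.p6) were matched for Otc, Ass1 and Nags, and those of Otc and Ass1 are shown because the mRNAs of these neighbouring steps moved apart most among the members. The 250 bases before the RefSeq start site are printed 5′ to 3′ on the plus strand, at chrX:10252055-10252304 for Otc and chr2:31470020-31470269 for Ass1, whose RefSeq start lies inside the gene as listed in the table. Capitals mark matches to the motifs listed after the sequences.

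Otc: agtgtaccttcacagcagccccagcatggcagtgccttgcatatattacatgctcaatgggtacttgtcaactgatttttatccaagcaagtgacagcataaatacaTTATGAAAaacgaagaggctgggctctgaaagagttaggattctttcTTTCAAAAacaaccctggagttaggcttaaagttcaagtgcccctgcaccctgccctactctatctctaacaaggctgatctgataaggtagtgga

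Ass1: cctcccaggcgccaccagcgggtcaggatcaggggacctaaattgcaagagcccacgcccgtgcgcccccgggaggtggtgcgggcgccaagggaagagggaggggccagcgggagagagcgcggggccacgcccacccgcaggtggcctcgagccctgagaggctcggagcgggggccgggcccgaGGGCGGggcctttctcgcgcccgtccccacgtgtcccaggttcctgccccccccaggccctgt

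The windows differ in composition: G and C make up 43.6% of the Otc window with 1 CG pair, and 75.6% of the Ass1 window with 23 CG pairs, where the median of 32851 mouse promoter windows is 52.4%. The C/EBP-type motif TTNNGNAA, named after a family of liver transcription factors, matched the Otc window at 143 and 96 bases before the start, while 36.8% of all windows hold it. The GC box GGGCGG matched the Ass1 window at 63 bases before the RefSeq start, inside the gene as listed in the table. It matched 32.7% of all windows. The Nags window held 2 GC boxes and 1 C/EBP-type match. On both strands, none of the 3 windows held TATAAA (in 12.4% of all windows), CCAAT (33.8%), TGACGTCA (1.55%) or its part TGACG (17.8%), TGTTCT (16.1%) or the HNF4-type TGGACTTTG (0.384%). Nor did they hold the spaced nuclear receptor repeat (0.0335%) or the full glucocorticoid response element (0.00913%). These matches describe letters and show no binding.

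All 6 genes passed the filter on low values. Ass1 and Arg1 mRNAs were the most abundant, Cps1 came next, then Asl and Otc, and Nags was far below the others. Ass1 averaged 1960 ± 822 scaled TPM in M, 3377 ± 1286 in A-C and 2619 ± 266 in C (SD, n = 3 each), while Nags averaged 48.6 ± 4.29, 50.4 ± 4.66 and 42.9 ± 2.23. Nags ranked sixth in each of the 9 libraries. The ranges of neighbouring genes overlapped for Arg1 and Cps1 in M and in A-C, for Asl and Otc in M, and for Ass1 and Arg1 in C, and for no other neighbours. In A-C, Cps1 at 913 to 1629 overlapped Arg1 at 1460 to 1603. In C, Arg1 was the most abundant of the 6 in replicate 2 and Cps1 lay far below Arg1 throughout, at 791 to 869 scaled TPM beside 1984 to 2652 for Arg1.

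**Figure D1:**
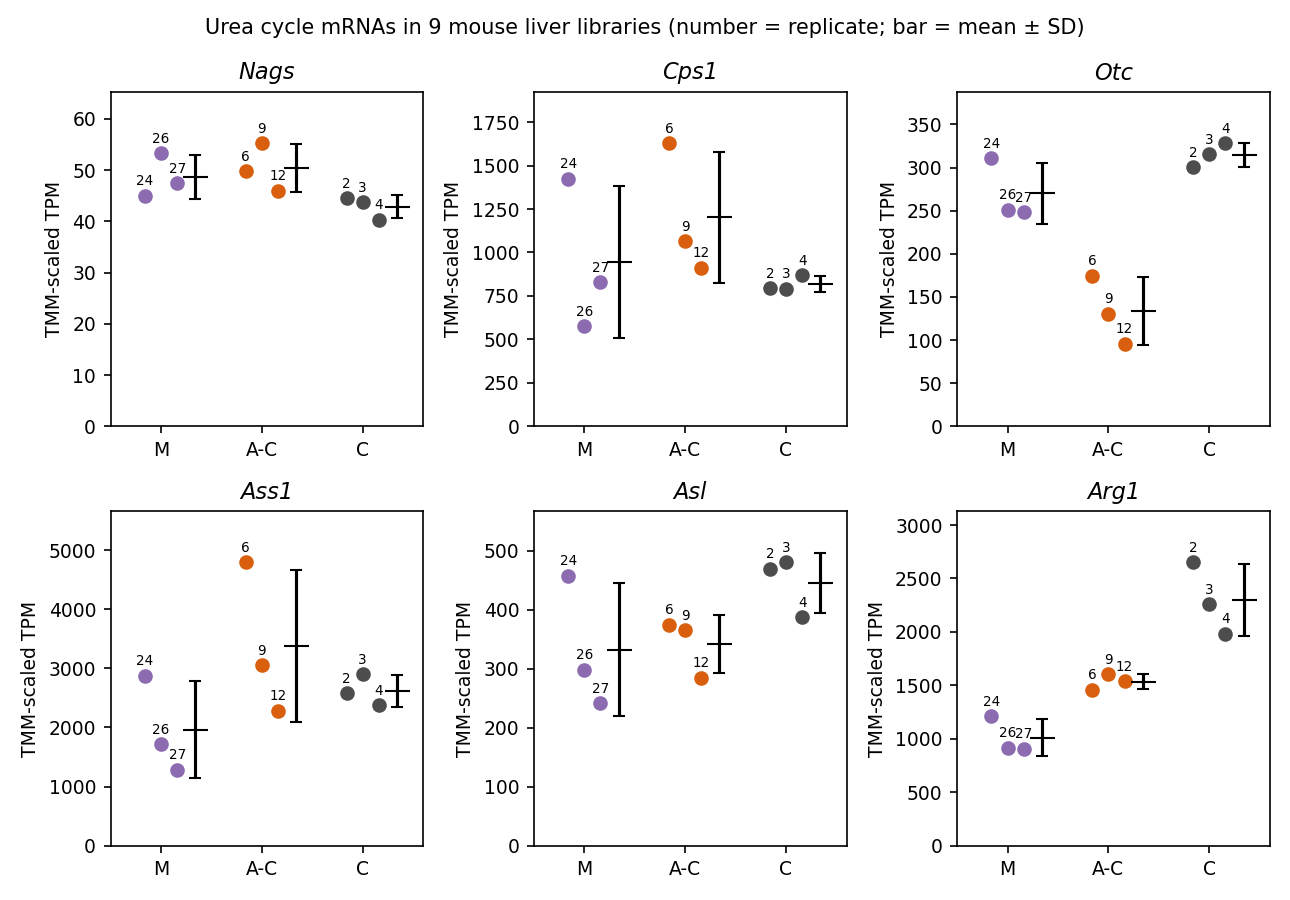
Level of each urea cycle mRNA in TMM-scaled TPM (linear axis from 0) in the libraries of M, A-C and C. Points are libraries with their replicate numbers, and bars are mean ± SD of 3. Otc in A-C (95.6 to 174) lies below M and C, and Arg1 does not overlap between M (907 to 1210.1), A-C (1460 to 1603) and C (1984 to 2652).

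The comparison of A-C with C asks which steps differ between these groups. Otc, the mitochondrial citrulline-making enzyme, was the only member called. Otc stood at 174, 131 and 95.6 scaled TPM in A-C (replicate 6, 9 and 12), against 300.4, 315 and 328 in C (replicate 2, 3 and 4). Every A-C library lay below every C library, and the A-C mean was 42.4% of the C mean. Otc fell by 1.27 log2 (SE 0.21, 95% interval -1.75 to -0.79, limma adjusted p = 0.00863). The call held in each fit that left out a library, with changes of -1.48 to -1.05. So 1 of 6 members was called, lower, where 16.8% of all tested genes were called and 7.17% were called lower. This share is near the background.

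The steps on either side of Otc were not called. Cps1, which makes the carbamoyl phosphate that OTC uses, stood at 1629, 1064 and 913 in A-C and 794, 791 and 869 in C. The groups did not overlap, with A-C higher, and the change of 0.51 log2 (95% interval -0.23 to 1.25) did not pass (limma adjusted p = 0.294). The spread used in the test is shared by the 3 groups, and the log2 SD was 0.66 in M, 0.43 in A-C and 0.08 in C. Without M replicate 24 the limma adjusted p was 0.167. Ass1, which takes up the citrulline, stood at 4794, 3056 and 2282 in A-C and 2581, 2902 and 2374 in C. These values overlapped and the change of 0.30 log2 (95% interval -0.46 to 1.06) did not pass (limma adjusted p = 0.548). Nags, whose product activates CPS1, stood at 49.8, 55.3 and 46.0 in A-C and 44.6, 43.8 and 40.4 in C. Each A-C value of Nags was above each C value, by little, and the change of 0.22 log2 did not pass (limma adjusted p = 0.241). In the TPM as deposited Nags was called higher in A-C (0.45 log2, limma adjusted p = 0.0404), where the median of all genes was 0.22 log2, against 0.03 after scaling. Over all tested genes that setting gave 2385 calls higher and 404 lower in A-C, and TMM scaling gave 1070 higher and 795 lower.

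The cytosolic steps that release arginine and urea were not called in A-C either, with Arg1 closest to the threshold. Arg1, which makes urea itself, stood at 1460, 1603 and 1539 in A-C, against 2652, 2262 and 1984 in C. The groups did not overlap, and the change of -0.57 log2 (SE 0.18, 95% interval -0.98 to -0.17) had a limma adjusted p of 0.0547, just outside the threshold. Without M replicate 24, which enters neither group mean, it had a limma adjusted p of 0.0427. That fit estimated the spread, filtered the genes and adjusted the p-values anew. Asl, which frees arginine, stood at 374, 365 and 285 in A-C and 469, 480.1 and 387 in C, without overlap (change -0.39 log2, 95% interval -0.93 to 0.15, limma adjusted p = 0.279). Groups were thus separate for 5 of the 6 genes, in both directions, where 41.2% of all tested genes did not overlap.

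**Figure D2:**
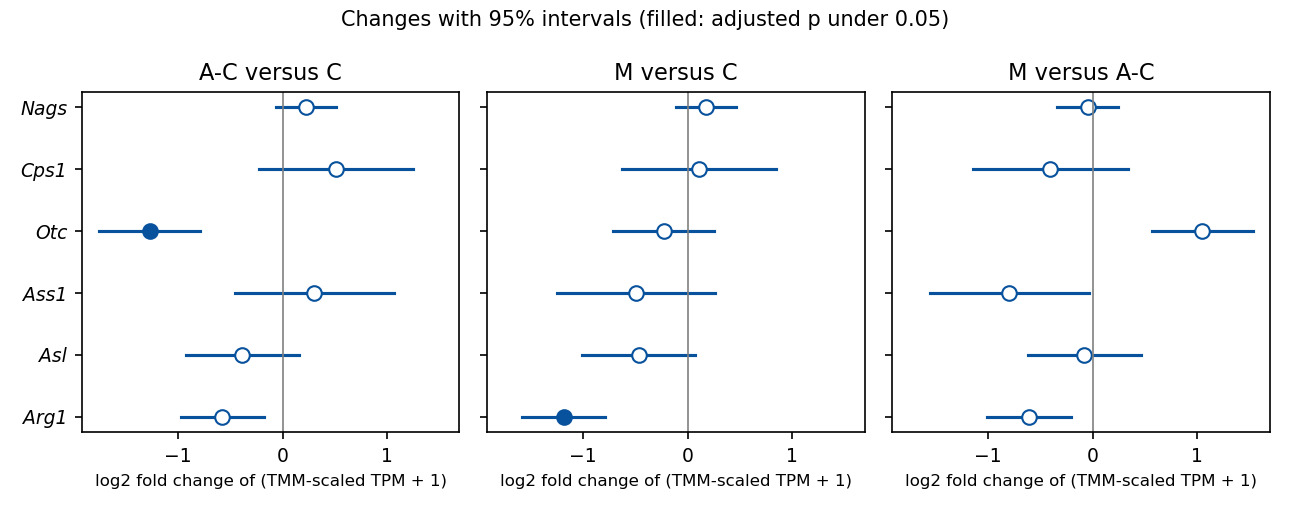
Log2 fold changes of (TMM-scaled TPM + 1) with 95% intervals from limma for the 6 genes in the 3 comparisons; filled points have an adjusted p under 0.05. Otc in A-C versus C (-1.27) and Arg1 in M versus C (-1.19) are the filled points.

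In M compared with C the called member was Arg1, and Otc was close to C. Arg1 stood at 1210.1, 918 and 907 scaled TPM in M replicates 24, 26 and 27, against 2652, 2262 and 1984 in C. All M libraries lay below all C libraries, and the M mean was 44.0% of the C mean. Arg1 fell by 1.19 log2 (SE 0.18, 95% interval -1.59 to -0.79, limma adjusted p = 0.00781), a call that held in each fit leaving out a library (-1.32 to -1.08). The summed hepatocyte markers were also lower in every M library than in every C library, and their part in the Arg1 level was not tested. Otc stood at 311, 251 and 248 in M, beside 300.4, 315 and 328 in C. The groups overlapped, and the change of -0.23 log2 (95% interval -0.71 to 0.26, limma adjusted p = 0.472) became 0.05 in the TPM as deposited, where the median of all genes stood at 0.27 log2 in place of 0.05, with 2931 calls higher and 351 lower in place of 1030 and 751. In this comparison 1 of 6 members was called, lower, beside 16.1% of all tested genes called and 6.77% called lower, so the share again is near the background.

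Cps1, Ass1 and Asl varied with the library in M, while Nags varied little. Cps1 stood at 1425, 575 and 831 in M and 794, 791 and 869 in C. Replicate 24 lay above all C libraries and replicate 26 below them, and the change of 0.11 log2 (95% interval -0.63 to 0.84, limma adjusted p = 0.838) turned to -0.24 without M replicate 24. Ass1 stood at 2875, 1721 and 1284 in M and 2581, 2902 and 2374 in C (change -0.49 log2, 95% interval -1.25 to 0.26, limma adjusted p = 0.319). Asl stood at 457, 298 and 241 in M and 469, 480.1 and 387 in C, so that replicate 24 lay within C and the others below it. Its change of -0.47 log2 (95% interval -1.01 to 0.07) had a limma adjusted p of 0.196, and of 0.0355 without M replicate 24, when it was -0.72. Nags stood at 45.0, 53.4 and 47.5 in M and 44.6, 43.8 and 40.4 in C (change 0.17 log2, limma adjusted p = 0.354), and was called higher in the TPM as deposited (0.45 log2, limma adjusted p = 0.0364). Groups were separate for Arg1 and Nags, 2 of 6, where 41.6% of all tested genes did not overlap.

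M and A-C differed most in Otc, with no member called by limma. Otc at 311, 251 and 248 in M lay above all A-C values of 174, 131 and 95.6, and the M mean was 2.02 times the A-C mean. The change of 1.04 log2 (SE 0.21, 95% interval 0.56 to 1.53) had a limma adjusted p of 0.128. Arg1 at 1210.1, 918 and 907 in M lay below all A-C values of 1460, 1603 and 1539 (change -0.61 log2, 95% interval -1.01 to -0.21, limma adjusted p = 0.246). Arg1 was thus lowest in M and highest in C, without overlap between any pair of groups. Ass1 at 2875, 1721 and 1284 in M overlapped 4794, 3056 and 2282 in A-C (change -0.80 log2, limma adjusted p = 0.412). Otc, Arg1 and Ass1 had an unadjusted p under 0.05, 3 of 6, where 11.5% of all tested genes had. Adjusted calls made up 0.171% of all tested genes (0.0361% higher and 0.135% lower), and groups did not overlap for 2 of 6 members and for 16.2% of all. Changes of Cps1, Asl and Nags were -0.41, -0.08 and -0.05 log2.

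Across all 3 groups, limma's moderated F test called Arg1 (adjusted p = 0.0121) and Otc (adjusted p = 0.0142), 2 of 6 beside 15.9% of all tested genes. Without C replicate 3 both missed the threshold, with adjusted p of 0.0631 for Arg1 and 0.0626 for Otc. The F test gave Ass1, Asl, Nags and Cps1 adjusted p of 0.222, 0.296, 0.369 and 0.435.

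Because 2 mRNAs of 1 library share its scaling, their ratio does not depend on it. The ratios of Otc to its neighbours set A-C apart. Cps1 over Otc was 4.58, 2.29 and 3.35 in M, 9.34, 8.15 and 9.55 in A-C, and 2.64, 2.51 and 2.65 in C. The A-C ratios were 3.46 times those of C in geometric mean, while M and C overlapped. Otc over Ass1 was 0.108, 0.146 and 0.193 in M, 0.0364, 0.0427 and 0.0419 in A-C, and 0.116, 0.109 and 0.138 in C. The A-C libraries were close to each other in both ratios although their Cps1 and Ass1 levels were spread widely.

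The ratios that hold Arg1 set M apart. Arg1 over Otc was 3.89, 3.65 and 3.66 in M, 8.37, 12.3 and 16.1 in A-C, and 8.83, 7.17 and 6.04 in C, so M lay below both other groups. Between M and A-C the change of Otc (1.04 log2) was larger than that of Arg1 (-0.61 log2), so this ratio also carries the Otc difference. Asl over Arg1 was 0.378, 0.325 and 0.266 in M, 0.256, 0.228 and 0.185 in A-C, and 0.177, 0.212 and 0.195 in C. M thus lay above both, by little for A-C. Ass1 over Asl spanned 8.01 to 12.8 in A-C, above the highest value of M (6.29) and of C (6.14). Nags over Cps1 overlapped in every comparison. Of 18 exact two-sided permutation tests on these 6 ratios, 10 gave p = 0.1 (0.18 adjusted over the 18), the smallest that 3 against 3 allows.

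**Figure D3:**
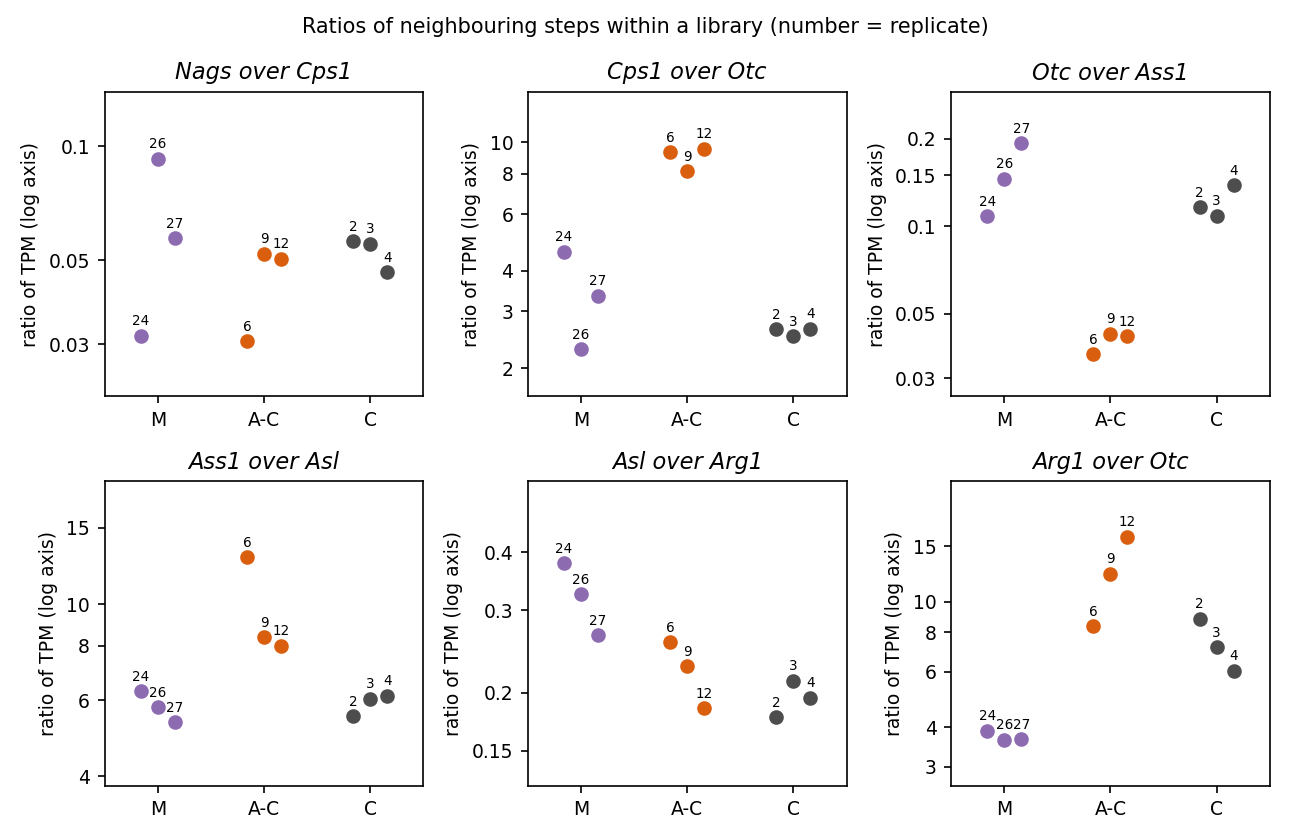
Ratio of the TPM of neighbouring urea cycle steps in each library (log axes), by group, with replicate numbers at the points. In Cps1 over Otc every A-C library (8.15 or more) lies above M and C (4.58 or less), and Arg1 over Otc is lowest in M (3.65 to 3.89).

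Together the 6 mRNAs took 0.383% to 0.853% of the TPM. Their summed TPM as deposited was 6937, 4077 and 3815 in M, 8497, 6827 and 5368 in A-C, and 5929.9, 6131 and 5368 in C, each in the replicate order used above. A-C and C thus overlapped in the sum, with A-C replicate 12 level with C replicate 4. Within the sum, Otc made up 4.92% to 6.97% in M, 1.85% to 2.08% in A-C and 4.39% to 5.49% in C. Arg1 made up 19.1% to 25.5% in M, 17.2% to 29.8% in A-C and 33.2% to 38.8% in C.

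The highest sums of M and A-C were those of the libraries with the least acute phase mRNA, M replicate 24 (3.16%) and A-C replicate 6 (2.58%). Both quantities are parts of the same fixed TPM total, so a larger acute phase share leaves less TPM for all other genes. In A-C the order of Cps1, Ass1, Otc and Asl in scaled TPM over replicates 6, 9 and 12 ran opposite to that of the acute phase share. Arg1 and Nags were highest in replicate 9. In M, replicate 26 had a larger acute phase share than replicate 27 (14.8% and 10.9%). Its urea cycle sum was also larger (4077 and 3815), with more Ass1, Asl, Otc, Arg1 and Nags. Cps1 went the other way, at 575 scaled TPM in replicate 26 and 831 in replicate 27. Of 19 acute phase genes, 7 were called higher in M than in C, beside 9.29% of all tested genes, and 3 in A-C than in C, beside 9.65%. The part of the acute phase response in the urea cycle levels was not tested.

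**Figure D4:**
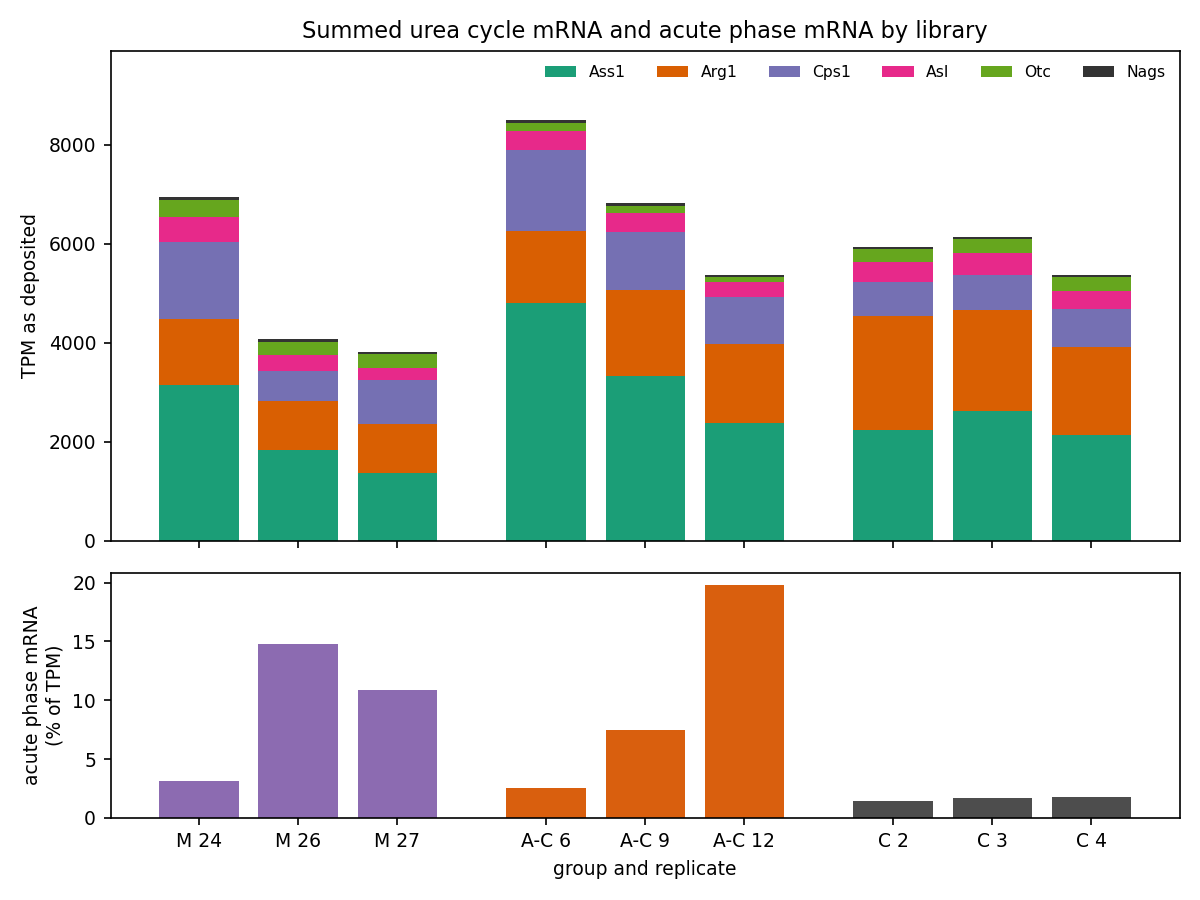
Upper panel, stacked TPM as deposited of the 6 urea cycle mRNAs in each library. Lower panel, share of the TPM taken by 19 acute phase genes in the same libraries, coloured by group. M replicate 24 and A-C replicate 6 have the largest sums of their groups (6937 and 8497) and the smallest acute phase shares (3.16% and 2.58%). Both panels show parts of the same fixed TPM total.

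The genes around the cycle were described from 5 lists with 60 members, of which 53 were tested. Against C, A-C had 6 of them called higher and 2 called lower, or 15.1%, beside 9.65% higher and 7.17% lower over all genes. Against C, M had 4 called higher and 1 called lower, or 9.43%, beside 9.29% and 6.77%. The lists as a whole thus stood at or below the background, and their median changes were -0.07 and -0.19 log2, beside 0.03 and 0.05 for all genes. Between M and A-C 0 of the 53 were called by limma, beside 0.171% of all tested genes. An unadjusted p under 0.05 was seen for 5 of the 53, beside 11.5% of all, which is near the background. These counts depend on single libraries: leaving out 1 gave 1 to 13 calls for A-C against C and 0 to 16 for M against C.

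Branch enzymes that use ornithine, arginine and ammonia held the clearest change of these lists. Odc1, ornithine decarboxylase, which draws ornithine into polyamines, stood at 36.5, 35.2 and 42.6 scaled TPM in M, 78.1, 65.9 and 52.5 in A-C, and 15.5, 18.4 and 24.2 in C. No pair of groups overlapped. Odc1 rose by 1.71 log2 in A-C (SE 0.20, limma adjusted p = 0.00287), in each fit leaving out a library, and by 0.96 in M (adjusted p = 0.0186), a call lost without M replicate 27, C replicate 2 or C replicate 3 (adjusted p up to 0.0846). Glul, glutamine synthetase, the route of ammonia removal in hepatocytes next to the central vein, stood at 657, 963 and 729.8 in M, 730.2, 1042 and 1093 in A-C, and 407, 389 and 635 in C. Glul rose in A-C (1.01 log2, limma adjusted p = 0.0282), a call lost without A-C replicate 9, A-C replicate 12, C replicate 2 or C replicate 3 (adjusted p up to 0.110), and its change of 0.73 in M did not pass (adjusted p = 0.0746).

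In the same list Gatm, which uses arginine to make a creatine precursor, was called higher in A-C at a low level, 1.29 ± 0.20 in A-C and 0.40 ± 0.32 in C (SD, n = 3 each; limma adjusted p = 0.0258), a call lost without A-C replicate 9, C replicate 3 or C replicate 4 (adjusted p up to 0.0984). No C library (0.77, 0.20 and 0.25 scaled TPM) reached the TPM of 1 that the filter asks for. Gatm thus entered the test only through its A-C and M libraries, so its call adds no support. Oat, ornithine aminotransferase, averaged 1100 ± 461 in M, 1268 ± 323 in A-C and 686 ± 211 in C, and did not pass (limma adjusted p = 0.0935 for A-C against C). Against C, and counting Gatm, A-C had 3 of the 9 tested members called higher and none lower by limma (4 at an unadjusted p under 0.05), beside 9.65% of all tested genes called higher and 35.2% at that unadjusted p. M had 1 called higher, beside 9.29%, which is near the background. The second arginase gene Arg2 and the nitric oxide synthase gene Nos2 were too low to be tested, with maxima of 0.333 and 0.0584 scaled TPM over the 9 libraries.

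Among 10 tested transport genes the calls against C were 2 higher and 1 lower for A-C, beside 9.65% and 7.17% of all tested genes, and 1 higher for M, beside 9.29%, which is near the background. Rhbg, an ammonium transporter of pericentral hepatocytes, stood at 7.74, 5.35 and 3.93 in M, 11.2, 7.99 and 9.65 in A-C, and 2.05, 1.99 and 4.19 in C. Rhbg rose in A-C (1.54 log2, limma adjusted p = 0.0101, and 0.0511 without C replicate 3). Slc38a2, an amino acid transporter, fell in A-C, to 34.3 ± 2.61 against 72.8 ± 3.51 in C (SD, n = 3 each; limma adjusted p = 0.0152), a call lost without A-C replicate 9 or C replicate 3 (adjusted p up to 0.0605). Slc25a12, an aspartate and glutamate carrier, was higher in A-C and in M (0.64 and 0.48 log2, limma adjusted p = 0.0187 and 0.0465), and each call was lost without A-C replicate 9 or any C library. In M it was also lost without any M library. The carriers that serve the cycle in liver mitochondria were not called: Slc25a15, the ornithine carrier, averaged 68.3 ± 27.1 in M, 103 ± 7.64 in A-C and 98.6 ± 8.77 in C, and Slc25a13, the liver aspartate and glutamate carrier, 87.4 ± 43.5, 87.4 ± 37.6 and 115 ± 9.71.

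Of 9 tested genes that supply nitrogen and bicarbonate, 0 were called by limma in A-C against C, beside 16.8% of all tested genes. At an unadjusted p under 0.05 there were 2, beside 35.2% of all tested genes. Against C, M had 1 called lower, beside 6.77% of all tested genes, which is near the background. That gene was Sirt5, a mitochondrial deacylase known to act on CPS1 in mouse, at 3.13 ± 1.15 in M and 5.45 ± 0.36 in C (SD, n = 3 each; limma adjusted p = 0.0481), a call lost in 7 of the 9 fits leaving out a library, all but those without M replicate 24 or A-C replicate 12. Glud1, glutamate dehydrogenase, which releases ammonia, averaged 453 ± 52.8 in M, 502 ± 64.7 in A-C and 450 ± 79.2 in C. Got1, the cytosolic aspartate aminotransferase, averaged 97.0 ± 97.2 in M, 105 ± 52.8 in A-C and 247 ± 76.4 in C, with limma adjusted p of 0.18 for A-C and 0.0879 for M against C.

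None of the 12 amino acid breakdown genes was called by limma in any comparison. Calls made up 16.8% of all tested genes in A-C against C, 16.1% in M against C and 0.171% in M against A-C. At an unadjusted p under 0.05 lay 1, 3 and 0 of the 12, in the same order. Over all tested genes these shares were 35.2%, 35.1% and 11.5%. Tat, tyrosine aminotransferase, and Sds, serine dehydratase, averaged 1582 ± 1454 and 119 ± 122 in M, 1485 ± 433 and 137 ± 21.7 in A-C, and 3308 ± 205 and 323 ± 69.5 in C. Among the 13 tested regulators, A-C had 1 called higher and 1 called lower than C, and M had 2 called higher than C. That is 15.4% in each comparison, beside 16.8% and 16.1% of all tested genes, which is near the background. Of these, Hnf4a rose in M (0.74 log2, limma adjusted p = 0.045) and Nr1h4, the bile acid receptor FXR, fell in A-C by 0.46 log2 (adjusted p = 0.048). The Hnf4a call was lost in 6 of the 9 fits leaving out a library, and the Nr1h4 call in all 9. The C/EBP genes Cebpa and Cebpb, whose proteins act on urea cycle promoters, averaged 254 ± 42.3 and 263 ± 77.8 in M, 220 ± 86.1 and 243 ± 70.0 in A-C, and 320 ± 40.0 and 401 ± 41.5 in C, and were not called.

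**Figure D5:**
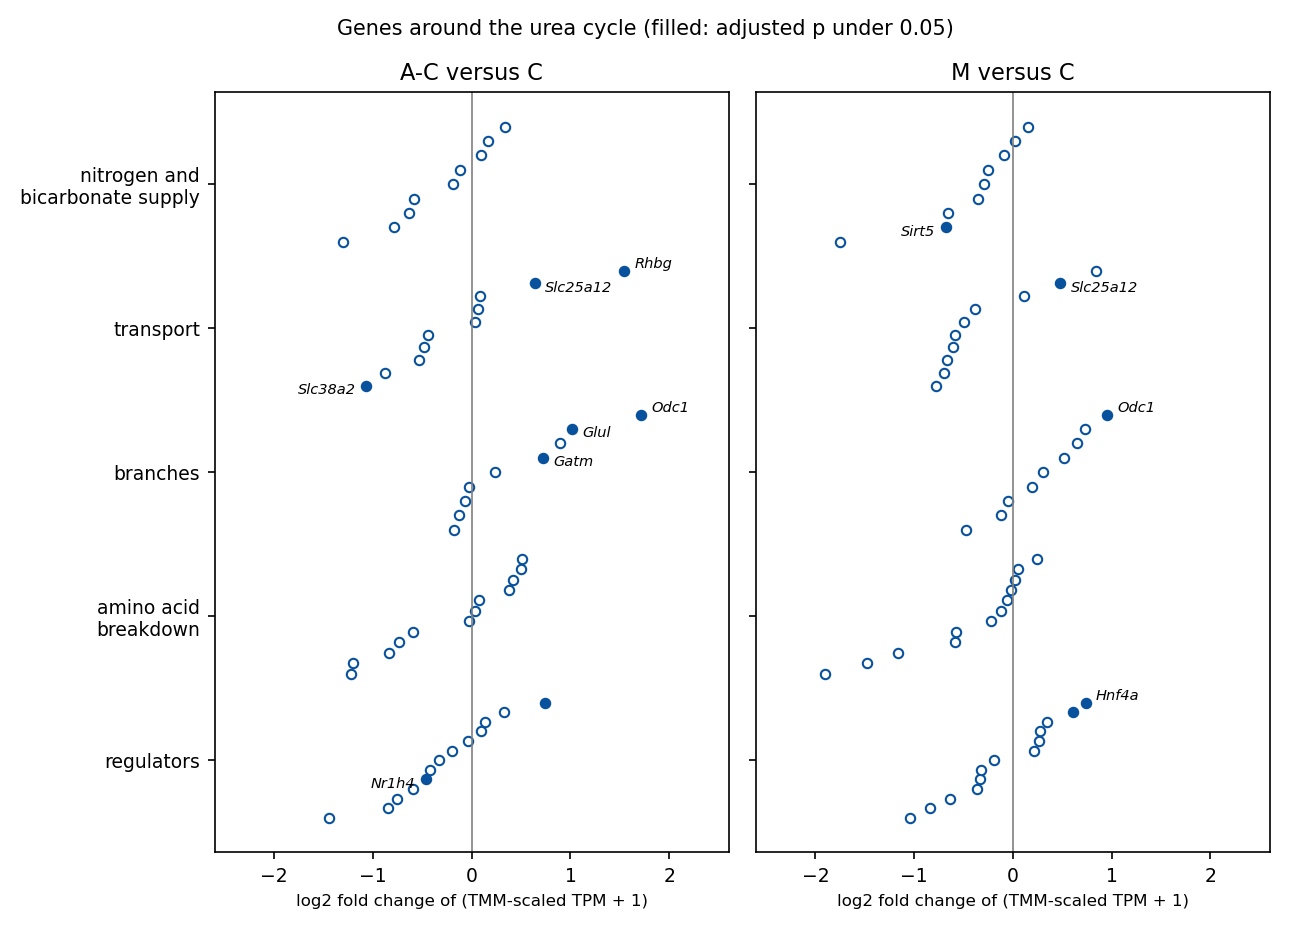
Log2 fold change of (TMM-scaled TPM + 1) of the 53 tested genes of 5 lists around the urea cycle, A-C versus C on the left and M versus C on the right. Filled points have an adjusted p under 0.05, 8 on the left and 5 on the right, and those described in the text are named, with Odc1 at 1.71 and 0.96.

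Likeness of pattern was measured as the root mean square difference between log2 values over the 9 libraries, each gene centred on its own mean. Rgn, which encodes regucalcin, was the nearest to Otc (0.19), at 1607 scaled TPM in M, 967 in A-C and 1768 in C, followed by Klc4 (0.20) and Syt3 (0.21). The nearest to Arg1 were Igfbp3 and Sh3bgrl3 (0.17 and 0.18), with Igfbp3 at 6.90 in M, 11.8 in A-C and 17.1 in C. The glycine decarboxylase gene Gldc was the nearest to Cps1 (0.13), and Gpt, alanine aminotransferase, was the second nearest to Ass1 after Tmem86b (0.17 and 0.14). The nearest to Asl was 1810044D09Rik (0.10) and to Nags, which hardly varied, Strbp (0.07). Among the 6 members themselves, Asl and Arg1 (0.35) and Cps1 and Ass1 (0.36) were the most alike pairs, and Otc and Ass1 (0.84) the least. The measure also depends on how much a gene varies. Asl differed from its own mean by 0.33, so a gene without change would be at least as near to Asl as Arg1 was.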

How the data were processed

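Total RNA from mouse liver was sequenced in 9 libraries, per the labels' protocols. The authors deposited 1 table of TPM on mm10, per the submitters' processing notes and the file headers. For the aligner, the counter, the annotation release and strandedness, each is not given in the sources used here. Of 32248 lines, 452 repeat 168 gene IDs under several symbols, and 1 line per ID was kept (31964). TPM times exon length fell on whole multiples of a step in at least 99.96% of values above 0 (within 0.1), which gave the reads for TMM factors (trimming 30% of ratios and 5% of levels). The TPM was divided by these factors, scaled to a geometric mean of 1. Any pair of libraries differed beyond sampling noise in at least 3711 genes.

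Genes with a TPM of at least 1 in at least 3 libraries (11086) were tested on log2(scaled TPM + 1) with limma 3.58.1 in R 4.3.3 (trend and robust settings, 1 mean per group, 9 libraries, 6 residual degrees of freedom), with Benjamini and Hochberg adjustment over all tested genes. The fit was checked on simulated data. Alternatives were the TPM as deposited, median-of-ratios scaling, a pseudocount of 0.1, no filter, only the groups compared, and each library left out. The members, the lists and the use of TMM were chosen with earlier results of these data known. Named genes were the 6 members, called genes of 5 related lists (others where a role was needed), and the 3 genes most alike to each member, not all of which are described. 1 related gene and 1 motif are counted but not reported here. Of 158 list entries, 1 was not matched to a symbol. Sequences are RefSeq's.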

Additional observations from a re-analysis of the deposited data

How the results depend on the processing

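The fall of Otc in A-C and of Arg1 in M, each against C, kept its direction and its call under each alternative run. The number of called members was 1 in A-C against C and 1 in M against C, and became 2 in each in the TPM as deposited (Nags added) and without M replicate 24, so that leaving out a library gave 1 to 2 in both. The F test called 2 members, 3 in the TPM as deposited, and 0 to 2 on leaving out a library, with 0 without C replicate 3. The 8 called related genes in A-C against C ranged from 1 to 13 on leaving out a library. The 5 in M against C ranged from 0 to 16, with 10 in the TPM as deposited and 1 without a filter on low values. The summed TPM of C averaged 5810 as deposited and 6539 after TMM scaling. Uncalled changes turned sign for Nags in M against A-C (0.0031 without M replicate 24 and 0.018 without A-C replicate 9, in a range of -0.12 to 0.018), Asl in M against A-C (0.12 without M replicate 27, range -0.34 to 0.12), Cps1 in M against C (-0.24 without M replicate 24, range -0.24 to 0.41) and Otc in M against C (0.052 in the TPM as deposited). The cause of these shifts was not tested. No paired analysis was possible because the groups share no replicate numbers. With 3 libraries a group, an uncalled member may still differ by any size within its interval.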
